A study of Mus musculus with 8 samples.

Results

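Sarcomere and calcium-related genes of heart muscle were examined in hearts of mice that lack microfibril-associated protein 4 (MFAP4), a glycoprotein of the extracellular matrix. The group comprised 4 genes, Calml3, Asph, Mybpc3 and Myom2, of 1387 genes that could be named on the arrays. They were measured by 5 cDNA clones of 20160, since Asph had 2 clones. The Asph clones are told apart here by the accessions the arrays give them, the expressed sequence AW561901 and the RefSeq transcript NM_023066. Calml3 (NM_027416), Mybpc3 (NM_008653) and Myom2 (NM_008664) were each named through a RefSeq transcript. The choice was made with the ratios of knockout over pool known: Calml3 and Asph clone AW561901 were picked for 1 sign on all 8 arrays, and Mybpc3 and Myom2 from a list of sarcomere genes. Their ratios are therefore given as a description without a test.

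The mice were male MFAP4-/- animals on the C57BL/6N background, 19 weeks old, and the comparison sample was a pool of heart RNA from wild-type males of that strain and age. Heart RNA of each of 4 knockout mice was hybridised to 2 arrays against the pool, once in each dye, which gives 8 arrays. The pool was made from 4 mice according to the channel labels and from 6 according to the labelling protocol, and no control mouse was hybridised by itself. The spread between control mice is therefore not measured, and a gene whose level in the pool departs from the average wild-type heart carries that departure in all 4 mice. In RNA of a whole heart, fewer cells of one type and less RNA per cell cannot be told apart.

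Heart muscle contracts when calcium enters the cell and triggers the release of more calcium from the sarcoplasmic reticulum, the internal calcium store. Mybpc3 encodes cardiac myosin-binding protein C, which sits on the thick filament and tunes the interaction of myosin with actin, and mutations in it are a common cause of inherited cardiomyopathy in humans. Myom2 encodes myomesin 2, also called M-protein, which links thick filaments at the M band in the middle of the sarcomere. The Asph locus encodes aspartate beta-hydroxylase and, through other transcripts, junctin and junctate; junctin ties the calcium-binding protein calsequestrin to the ryanodine receptor in the sarcoplasmic reticulum. Calml3 encodes a calmodulin-like protein that binds calcium through EF hands and, in humans, is known mainly from epithelia.

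The arrays were dim: the share of spots over 2 times local background ran from 8.03% to 23.8% per array for Cy5 and from 4.65% to 35.9% for Cy3. A spot flag, which was set on no spot of mice 1 and 2 and on 28.2% to 43.0% of spots of mice 3 and 4, was set on none of the 5 clones. None of them had saturated pixels on any array. None of the 13 cardiomyocyte markers listed for a check of the tissue, such as Myh6 and Tnnt2, was named on the arrays. Mybpc3, whose product is the cardiac form of the protein, lay between 4.17 and 21.9 times its local background in all 16 channels, and Myom2 between 2.75 and 15.7 times. Asph clone NM_023066 exceeded 2 times background in 15 of 16 channels, Calml3 in 12 and Asph clone AW561901 in 10. The last of these reached at most 3.24 times background in any channel, and Calml3 at most 4.65 times. The share of a spot's pixels more than 2 SD above background was as low as 1% for Calml3. This held for the knockout channel with mouse 2 in Cy3 and the pool channel with mice 2 and 4 in Cy5. The pool channel of Asph clone AW561901 had 0% and 2% with mice 1 and 2 in Cy5. Myom2 also had 0% in 1 pool channel that lay at 6.76 times background, with mouse 1 in Cy3.

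**Figure D1:**
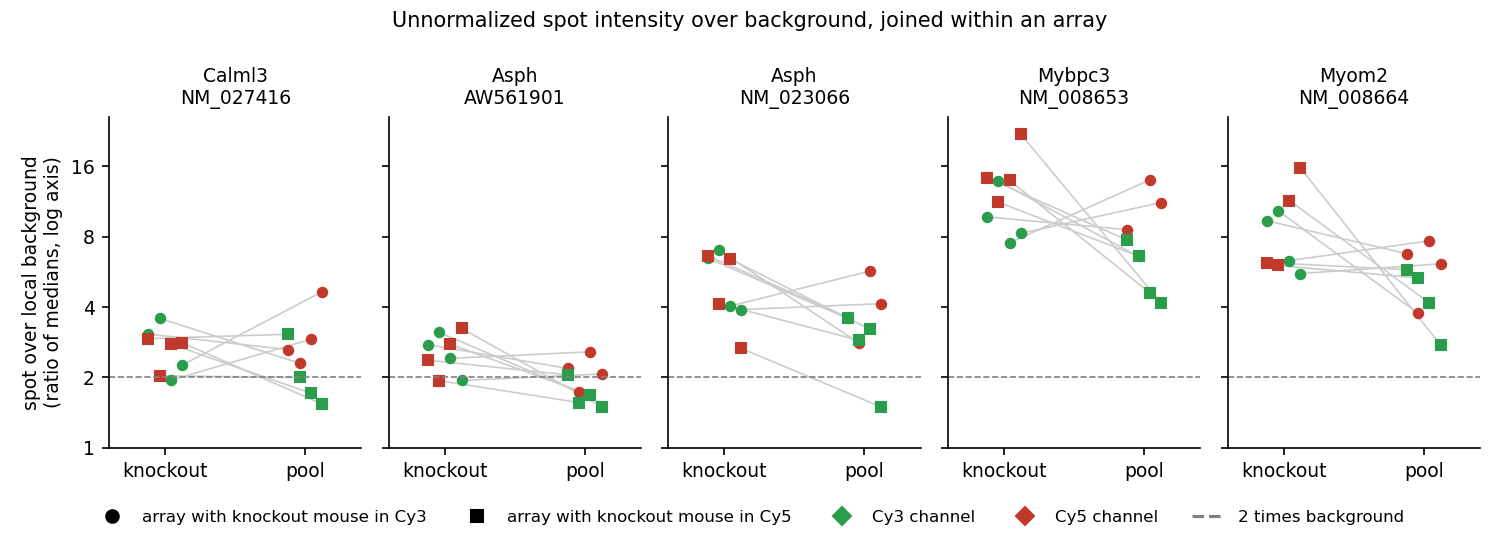
Unnormalized median spot intensity divided by the median of the local background (log axis) for the 5 clones, with knockout RNA left of the pool RNA of the same array, a line joining the 2 channels of an array, and the dashed line at 2 times background. Mybpc3 and Myom2 stood above 2 times background in all 16 channels, while Calml3 and Asph clone AW561901 lay close to that line.

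Across all clones, the question was which genes differed in knockout hearts from the wild-type pool. In limma's test of the 8142 clones measured on every array, 0% were called higher and 0% lower at an adjusted p of 0.05, and 936 clones (11.5%) had an unadjusted p under 0.05. The count of calls at an adjusted p of 0.05 was 87 without mouse 1 and 136 with median centring of the arrays in place of loess. The median absolute log2 ratio of the tested clones was 0.084 and their median SD over the 4 mice was 0.17. A log2 ratio above 0 on all 8 arrays was found for 0.86% of tested clones and below 0 on all 8 arrays for 1.47%; above 0 in all 4 mice were 12.3% and below 0 in all 4 mice 8.49%.

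Calml3 was lower in all 4 knockout hearts than in the pool. After subtraction of the local background, its spot in mice 1 to 4 read 430, 307, 122 and 166 scanner units in knockout RNA labelled with Cy3, against 476, 306, 325 and 587 in the pool RNA of the same arrays. With the knockout RNA in Cy5 it read 427, 192, 240 and 120, against 480, 219, 107 and 70 in the pool. These raw readings still hold the overall difference in brightness between the dyes, which was largest on the arrays of mice 3 and 4.

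After normalization, the log2 ratio of Calml3 in mice 1 to 4 was -0.091, -0.40, -0.54 and -0.93 with the knockout mouse in Cy3. With the knockout mouse in Cy5 it was -0.35, -0.26, -0.14 and -0.17. All 8 arrays thus lay below 0, and the 2 orientations of mice 3 and 4 stood far apart. Averaged over the orientations, the 4 mice lay at -0.22, -0.33, -0.34 and -0.55, with mouse 4 lowest. The mean was -0.36 ± 0.14 (SD, n = 4 mice), a fold of 0.779, and 2.68% of the tested clones lay lower.

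The sign of Calml3 on 2 of its 8 arrays rested on the correction for brightness. On the arrays with knockout mice 3 and 4 in Cy5, its unnormalized log2 ratio was 0.89 and 0.49, where the median of the tested clones was 0.66 and 0.43. Loess, which removes the part of a ratio that varies with brightness, moved the values of Calml3 to -0.14 and -0.17. With median centring Calml3 lay below 0 on 6 arrays and had a mean of -0.24, and in the authors' value table it also lay below 0 on 6 arrays, with a mean of -0.27. Without any 1 mouse the mean ran from -0.41 to -0.30, and it was -0.27 over mice 1 and 2 and -0.45 over mice 3 and 4. The spots printed around Calml3 had a mean log2 ratio of 0.00043 ± 0.15 (SD, n = 4 mice).

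**Figure D2:**
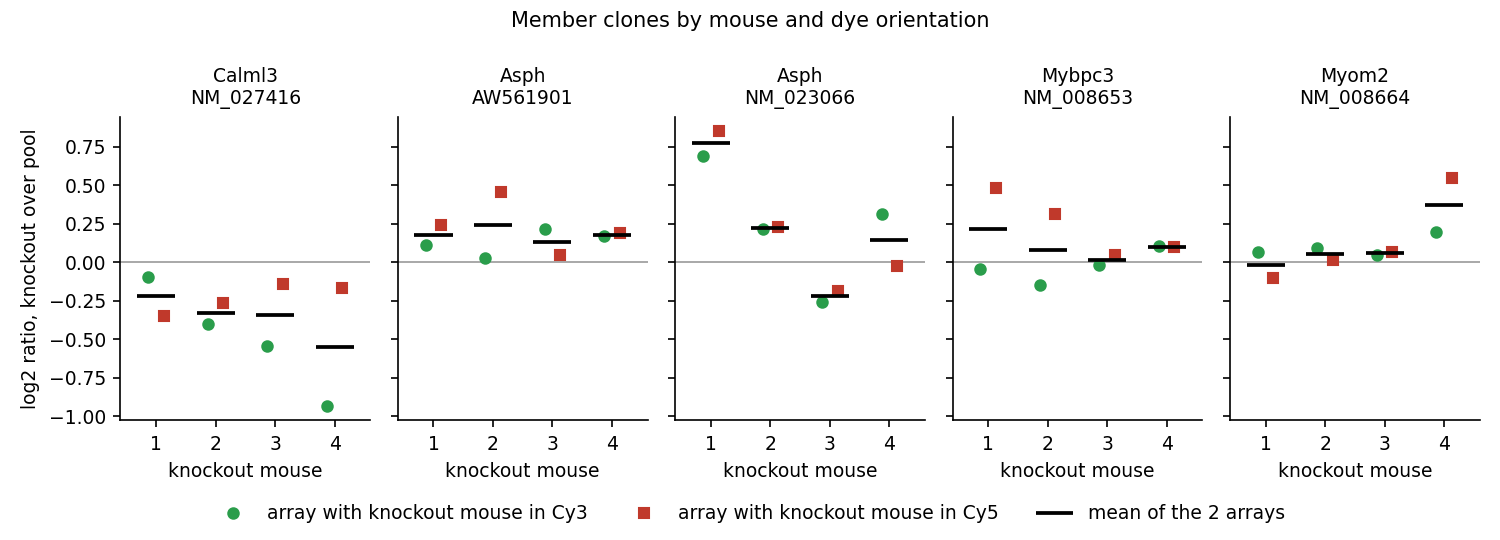
Normalized log2 ratio of knockout over pool for each clone and knockout mouse, with a circle for the array with the mouse in Cy3, a square for the array with the mouse in Cy5 and a bar for their mean. Calml3 lay below 0 on all 8 arrays and Asph clone AW561901 above 0 on all 8, while Asph clone NM_023066 differed between mice and Myom2 was highest in mouse 4.

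Both Asph clones had a mean above 0, but they behaved differently over the mice. Clone AW561901 lay at 0.18, 0.24, 0.13 and 0.18 in mice 1 to 4. Its mean was 0.18 ± 0.045 (SD, n = 4 mice), a fold of 1.14, and its SD over mice was smaller than that of all but 2.06% of tested clones, which the choice of a clone with 1 sign on every array favours. Its single arrays ran from 0.032 to 0.45 and all lay above 0. The spots printed around it had a mean of 0.061 ± 0.19 (SD, n = 4 mice). The signal behind this clone was low: minus background, knockout RNA in Cy3 read 354, 235, 174 and 128 units, against 333, 173, 233 and 171 in the pool of the same arrays. Print-tip loess, fitted within each block of spots, left 6 of its 8 arrays above 0.

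The other Asph clone, NM_023066, was well measured in most channels. In Cy3, knockout RNA of mice 1 to 4 read 1149, 733, 334 and 412 units over background, against 720, 436, 715 and 533 units in the pool. In Cy5 the knockout RNA read 1302, 581, 624 and 103 units, against 579, 405, 250 and 58 units. Its normalized log2 ratio was 0.77, 0.22, -0.22 and 0.14 in mice 1 to 4. Mouse 1 stood high and mouse 3 low, and 5 of 8 arrays lay above 0.

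The mean of this clone was 0.23 ± 0.41 (SD, n = 4 mice), a fold of 1.17, so its spread over mice exceeded the mean. Without mouse 1 the mean was 0.049, and without mouse 3 it was 0.38. Over mice 1 and 2 it was 0.50 and over mice 3 and 4 it was -0.038. The dye-swapped arrays of a mouse lay close to each other: 0.69 and 0.86 in mouse 1, 0.21 and 0.23 in mouse 2, and -0.26 and -0.18 in mouse 3, with the mouse in Cy3 given first. In mouse 4 they were 0.32 and -0.026. The spots printed around this clone had a mean log2 ratio of 0.0087 ± 0.15 (SD, n = 4 mice). In the same order of arrays, their median was -0.12 and 0.17 in mouse 1 and 0.15 and 0.14 in mouse 2. It was -0.29 and -0.13 in mouse 3 and -0.053 and 0.20 in mouse 4. In mouse 3 the surrounding spots were thus low as well.

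The spread between mice can be set against the spread between the arrays of a mouse, because the mean of a dye-swapped pair and the halved difference within it carry the same noise of single arrays. For Asph clone NM_023066 the SD over mice was 0.41 for the mean and 0.11 for the halved difference, a ratio of 3.73, against a median ratio of 0.945 over all tested clones. The ratio was 1.53 for Myom2, 0.641 for Calml3, 0.619 for Mybpc3 and 0.360 for Asph clone AW561901. Each SD rests on only 4 mice, so the ratio of any 1 clone is imprecise and is given as a description. Pearson's r between the 2 Asph clones over the 8 arrays was 0.11, where the arrays share mice and the pool. Both clones lay above 0 in 3 of 4 mice and on 5 of 8 arrays, and the difference, NM_023066 minus AW561901, was 0.047 ± 0.40 (SD, n = 4 mice). Which Asph transcripts each clone detects was not tested.

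Mybpc3 lay slightly above 0 in all 4 mice. Over background, its spot in mice 1 to 4 read 1838, 1584, 1032 and 1090 units in knockout RNA labelled with Cy3, against 2007, 1195, 1922 and 1681 in the pool. With the knockout RNA in Cy5 it read 2695, 1768, 1523 and 1402 units, against 1553, 1138, 487 and 403 in the pool. The channel in Cy5 was thus the brighter one on 7 of the 8 arrays before normalization.

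The normalized log2 ratio of Mybpc3 was 0.22, 0.082, 0.017 and 0.10 in mice 1 to 4, with a mean of 0.11 ± 0.084 (SD, n = 4 mice), a fold of 1.08; 24.0% of tested clones lay higher. Mouse 1 was highest and mouse 3 lowest, and leaving out mouse 1 gave a mean of 0.068 over the remaining mice. On the arrays with the mouse in Cy3 the values were -0.043, -0.15, -0.017 and 0.11, and on those with the mouse in Cy5 they were 0.48, 0.31, 0.050 and 0.098. The orientation means of -0.025 and 0.24 differed in sign, and the mean over mice was carried by the Cy5 arrays of mice 1 and 2. Median centring gave a mean of 0.40, and the authors' value table gave 0.41.

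Myom2 lay near 0 in mice 1 to 3 and higher in mouse 4. Its log2 ratio was -0.016, 0.054, 0.058 and 0.37 in mice 1 to 4, and the mean was 0.12 ± 0.17 (SD, n = 4 mice), a fold of 1.08. Without mouse 4 the mean was 0.032, so the value rested on that mouse, and 21.2% of tested clones lay higher than the full mean. In mouse 4 the array with the mouse in Cy5 gave 0.55 and the other 0.20. On the Cy5 array of that mouse the spot read 913 units over background in knockout RNA, against 191 in the pool, and on the Cy3 array 566, against 809. In mice 1 to 3 all 6 arrays lay between -0.10 and 0.094. With median centring the mean was 0.39 and it was also high, at 0.41, in the values deposited by the authors.

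Unequal labelling by the dyes was examined clone by clone, as a mouse's ratio in Cy5 minus its ratio in Cy3, divided by 2. This quantity was not used to choose Mybpc3 and Myom2, whereas 1 sign on all 8 arrays, for which Calml3 and Asph clone AW561901 were picked, favours a small dye effect beside the ratio. Over all tested clones limma called 903 dye effects at an adjusted p of 0.05, 2.92% of clones higher and 8.17% lower with the mouse in Cy5, and 0 of the 5 member clones were among them. Mybpc3 had a dye effect of 0.13 ± 0.084 (moderated SE, n = 4 mice; limma adjusted p = 0.327), with 1 sign in 3 of 4 mice. Calml3 had 0.13 ± 0.098 (adjusted p = 0.392), with 1 sign in 3 of 4 mice. For Asph clones AW561901 and NM_023066 and for Myom2 it was 0.050, -0.011 and 0.015, with limma adjusted p from 0.712 to 0.938. The dye effect of Mybpc3 was larger than its knockout ratio of 0.11.

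**Figure D3:**
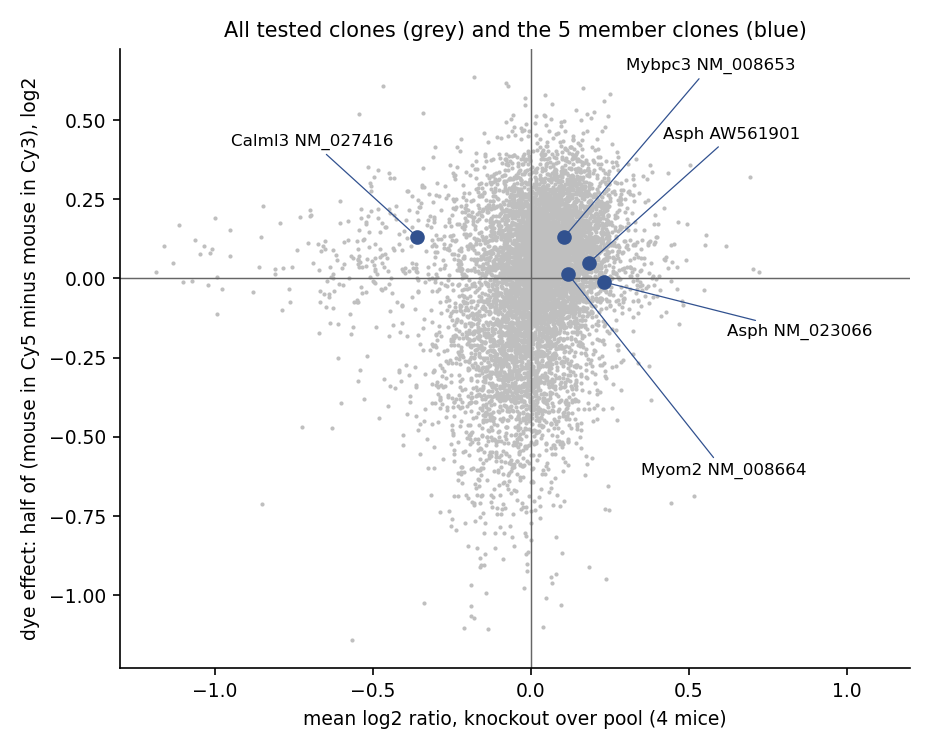
Mean log2 ratio of knockout over pool (x axis) against the dye effect (y axis, log2 ratio with the mouse in Cy5 minus that with the mouse in Cy3, divided by 2) for the 8142 tested clones in grey and the 5 member clones in blue. The members lay within the cloud of all clones, Calml3 toward its low side at -0.36.

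The means were recomputed under other processing settings. Of the 5 means, only that of Mybpc3 changed sign in any setting tried, to -0.025 on its Cy3 arrays. Over the settings other than leaving out a mouse, the means ran from -0.49 to -0.23 for Calml3, from 0.12 to 0.39 for Asph clone AW561901, from 0.17 to 0.43 for Asph clone NM_023066, from 0.087 to 0.41 for Myom2 and from -0.025 to 0.41 for Mybpc3.

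**Figure D4:**
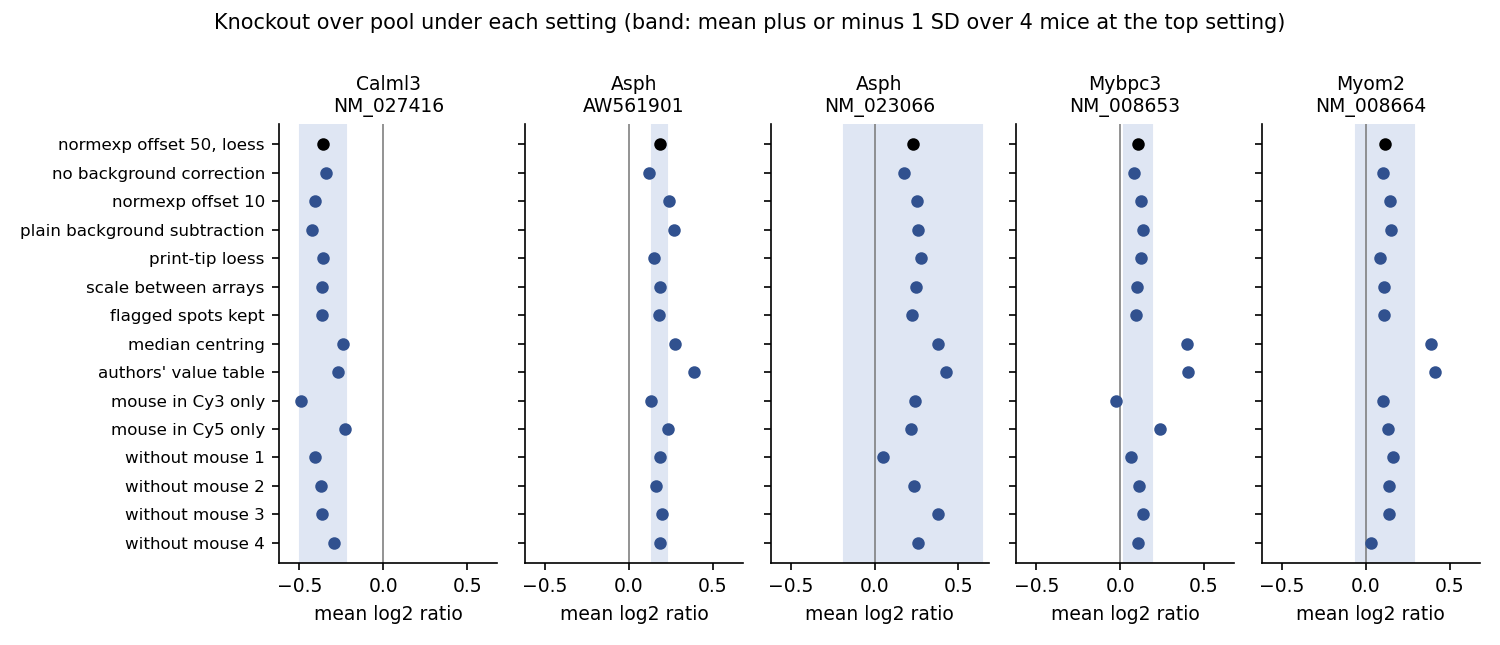
Mean log2 ratio of knockout over pool of each clone (x axis) under each processing setting (rows), with the band showing the mean ± 1 SD over 4 mice at the top setting. Mybpc3 and Myom2 left their bands with median centring and in the authors' value table, at 0.39 to 0.41, Mybpc3 also on the Cy3 arrays alone and on the Cy5 arrays alone. Asph clone AW561901, with the narrowest band, left it in 7 settings, and Calml3 stayed below 0 in every row.

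Other genes of the sarcomere were read from lists of thick filament, thin filament and Z disc genes. Where a gene had several tested clones, the brightest stood for it. Of 69 listed genes, 9 were named on the arrays and 7 were tested, and limma called 0 higher and 0 lower over all clones (0 also had an unadjusted p under 0.05). Ratios above 0 were found for 5 of the 7 and ratios below 0 for 2, and their median was 0.081, against 58.5% above 0 and a median of 0.025 over all tested clones. The 3 thick filament and M band genes, Mybpc3, Myom2 and Nbr1, had a median of 0.12, which is the value of Myom2 itself. Mybpc3 and Myom2 count among the 7 and were chosen with their ratios known, so these counts and medians are a description. They hold for the listed genes only, since the lists leave out other tested sarcomere genes. Of those, Myl1 lay at 0.032 ± 0.053 (SD, n = 4 mice) and Tmod4 at -0.040 ± 0.32. Nrap lay at -0.051 ± 0.066 and Trim54 at -0.053 ± 0.20. The troponin genes Tnni2 and Tnnc2, counted below as skeletal muscle markers, lay at -0.021 and -0.025. Nbr1, which encodes an autophagy receptor that binds the kinase domain of titin, lay at 0.14 ± 0.14 (SD, n = 4 mice). A dimmer clone of Nbr1 lay on the other side of 0, at -0.036 ± 0.069, so its place among the genes above 0 rests on the choice of clone.

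Of the thin filament genes, Tmod1, which encodes tropomodulin 1, the cap of the pointed filament end, lay at 0.081 ± 0.21 (SD, n = 4 mice). Tpm2, a tropomyosin gene, lay at 0.0034 ± 0.17 and Capzb, a subunit of the barbed end cap, at -0.0051 ± 0.17. Tcap, which encodes telethonin, a titin-binding protein of the Z disc, lay at -0.016 ± 0.31, with 0.37 in mouse 1 and -0.39 in mouse 3. None of these 4 means exceeded its spread over mice. The other tested clone of Tpm2 lay at 0.036 ± 0.13 and that of Tcap at -0.12 ± 0.22.

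Of 100 genes listed for calcium handling, 14 were named and 6 tested, and limma again called 0 higher and 0 lower. Ratios above 0 were found for 3 of the 6 and below 0 for the other 3, and their median was 0.018. These counts hold for the listed genes only, since the lists leave out other tested calcium-related genes. Among those left out, Cacng4 lay at -0.013 ± 0.062 (SD, n = 4 mice), Pde1b at -0.021 ± 0.072 and Cib2 at -0.15 ± 0.28. Pde1c lay at 0.071 ± 0.12 and Hpcal1 at 0.52 ± 0.98. Srl, which encodes sarcalumenin, a calcium-binding protein of the sarcoplasmic reticulum, lay at 0.10, 0.21, 0.10 and 0.12 in mice 1 to 4, with a mean of 0.13 ± 0.054 (SD, n = 4 mice). Its mean was -0.15 over the Cy3 arrays and 0.41 over the Cy5 arrays, and its dye effect of 0.28 was called (limma adjusted p = 0.0476). Iqgap1, a scaffold that binds calmodulin, lay at 0.27 ± 0.22, with a called dye effect of 0.31 (limma adjusted p = 0.0498; 1 of 16 channels over 2 times background). S100a9, an EF-hand protein of neutrophils, lay at -0.097 ± 0.45 with 0 of 16 channels over 2 times background. Letm1, a protein of the inner mitochondrial membrane, lay at -0.46 ± 0.26, below 0 in all 4 mice, with 16 of 16 channels over 2 times background. The 2 tested Letm1 clones disagreed: the other lay at 0.078 ± 0.063 (SD, n = 4 mice), above 0 in all 4 mice and on 4 of 8 arrays, with 7 of 16 channels over 2 times background. Without the 4 members, 5 of the 9 tested genes of both kinds of list lay above 0 (58.5% of all tested clones did), and their median was 0.0034. The 2 with an unadjusted p under 0.05 in limma (11.5% of all tested clones) were Iqgap1 and, by its brighter clone, Letm1.

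**Figure D5:**
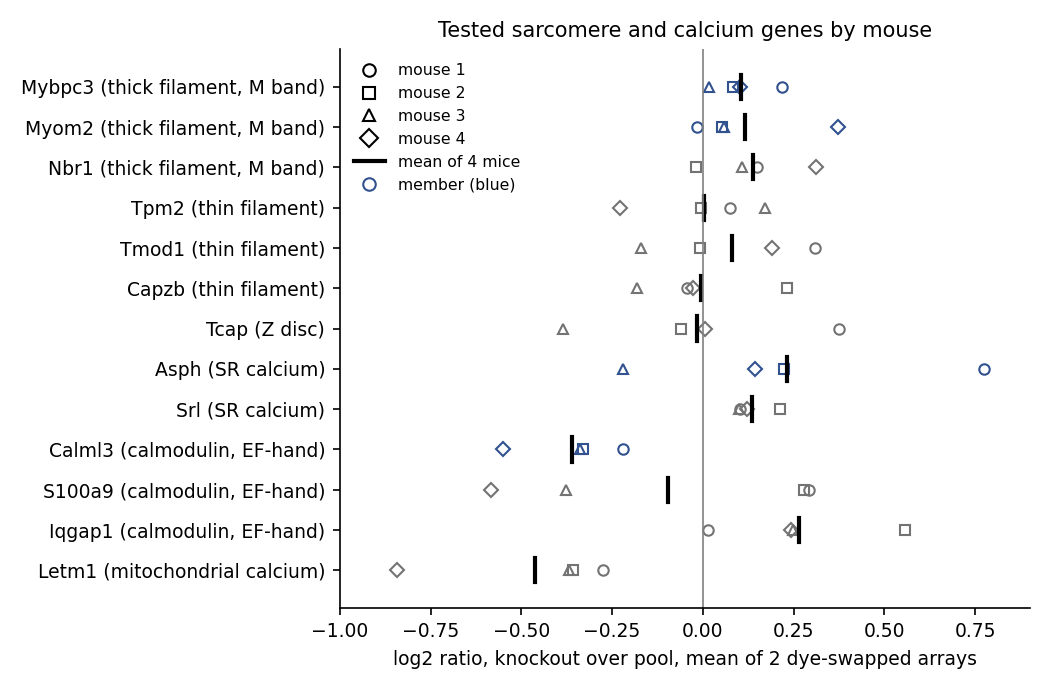
Log2 ratio of knockout over pool (x axis), averaged over the dye-swapped arrays, for the 13 tested genes of the sarcomere and calcium lists, with 1 symbol per mouse, a bar for the mean of 4 mice and the members in blue, each gene by its brightest tested clone (Asph by NM_023066). Among these 13, Calml3 and Letm1 had all 4 mice below 0 (8.49% of all tested clones did). For Calml3 this follows from its choice for 1 sign on all 8 arrays. Mybpc3, chosen with its ratio known, Srl and Iqgap1 had all 4 above 0 (12.3% of all tested clones). The dimmer Letm1 clone, not drawn, also had all 4 above 0.

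A further 10 listed genes of the sarcomere and of calcium handling had values on only 4 to 7 arrays, and keeping flagged spots gave them a value on all 8. They had at most 1 of 16 channels over 2 times background. Cacna1h, a T-type calcium channel gene, lay at -0.27 ± 0.17 (SD, n = 4 mice), and Pcp4, which encodes a small calmodulin-binding protein, at -0.098 ± 0.091. Both lay below 0 in all 4 mice, as did 8.98% of all clones with flagged spots kept. Calm4, another calmodulin-related gene, lay at 0.090 ± 0.24. Ldb3, a Z disc gene, lay at 0.084 ± 0.10 and Synpo2 at -0.050 ± 0.20. Tmem38b, a cation channel gene of the sarcoplasmic reticulum, lay at -0.012 ± 0.17. The other 4, Cacna1g, Camk2b, Camkk1 and Mcub, lay between -0.036 and 0.12.

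Markers of other cell types that a heart sample could hold were measured sparsely. Of 48 such marker genes, 11 were named and 8 tested, 4 above 0 and 4 below, with 0 called by limma and 0 at an unadjusted p under 0.05. Epcam, the named epithelial marker of the 6 listed, lay at -0.061 ± 0.17 (SD, n = 4 mice; flagged spots kept) with 1 of 16 channels over 2 times background, beside -0.36 for Calml3. Of the skeletal muscle markers, Tnni2 lay at -0.021 ± 0.14 and Tnnc2 at -0.025 ± 0.20, and with flagged spots kept Tnnt3 lay at 0.11 ± 0.15 (0 of 16 channels over 2 times background), beside 0.12 for Myom2. In the other lists the genes farthest from 0 were Notch3 of smooth muscle at 0.18 ± 0.19, Lyz2 of macrophages at 0.18 ± 0.24 (2 of the 3 tested macrophage markers lay above 0, and C1qa lay at -0.11 ± 0.12), Ddr2 of fibroblasts at -0.14 ± 0.19 and Sptb of red blood cells at 0.11 ± 0.14. Most of these markers were near background: Notch3, Ddr2 and C1qa had 0 of 16 channels over 2 times background and Sptb had 1. Lyz2 had 11, Tnni2 16 and Tnnc2 3. The part of other cells in the member ratios was not tested.

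For each member clone the named genes with the most similar pattern over the 8 arrays were found among 608 other named clones by Pearson's r, which is given as a description because the arrays share mice, pool and dyes. For Asph clone NM_023066 these were Col13a1 (r = 0.885), a transmembrane collagen gene, Tcap (0.874) and Tmod1 (0.862), while the other tested Tcap clone had r = 0.721. In mice 1 to 4 Tcap lay at 0.37, -0.061, -0.39 and 0.0071 and Tmod1 at 0.31, -0.0066, -0.17 and 0.19, against 0.77, 0.22, -0.22 and 0.14 for that Asph clone. All 3 were highest in mouse 1 and lowest in mouse 3, the order of mice 2 and 4 differing. Tcap and Tmod1 were picked for their r with this clone, so a shared order of mice follows largely from the choice. With the mean of each dye orientation taken out, neither was among the 3 most alike.

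For Calml3 the most alike were Sav1 (r = 0.936), Cdh13 (0.932) and Prelid1 (0.926), whose means of 0.083, 0.098 and 0.040 lay on the other side of 0 from that of Calml3. The pattern shared with them was the difference between arrays, not the level. For Myom2 they were the ribosomal protein gene Rpl6 (0.905), Apobec2 (0.901), a deaminase-family gene of muscle, and Snx2 (0.893). For Mybpc3 they were Cavin1 (0.911), a gene of caveolae, Mast2 (0.882) and Mdm4 (0.864), and for Asph clone AW561901 Son (0.866), Terf2 (0.847) and Pmf1 (0.796). Among the members themselves, r over the 8 arrays ran from -0.39, for Asph clone NM_023066 and Myom2, to 0.69, for Asph clone AW561901 and Mybpc3.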

How the data were processed

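Spotted cDNA arrays compared heart RNA of 4 knockout mice with a wild-type pool, in both dyes. The deposited scanner files hold median spot and background intensity per channel, unnormalized, per the file headers. They also hold the percent of saturated pixels per spot and, per the file headers, a flag per spot, treated as a deposited score. What the flag stands for is not stated in the sources. The authors' value table holds a score per spot. Its direction was found to be mouse over pool (Spearman's rho with the scanner log2 ratio at least 0.998), while its centring remains unknown. Column medians for the Cy3 arrays of mice 1 to 4 were -0.14, 0.024, -0.032 and -0.094. For the Cy5 arrays they were -0.17, -0.13, -0.31 and -0.58. Values over 20 in size were left out.

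Intensities were corrected by normexp (offset 50) and loess in limma 3.58.1 (R 4.3.3). Flagged spots had weight 0 and were left out. Ratios were turned to knockout over pool by the dye labels, and the 2 arrays of a mouse were averaged. The 8142 clones with a value on all 8 arrays, 609 of them named, were fitted against 0 with Benjamini-Hochberg adjustment. The self-check was run on simulated data. The number of knockout mice, 4, and the use of 1 pool limit the precision. Names came from RefSeq (GRCm38.p6): of 20205 spots, 964 matched a transcript and 500 a synonym or symbol. Array correlations across clones ran from 0.158 to 0.582 within a dye orientation and from -0.33 to 0.029 between the arrays of a mouse.

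The members, the 18 gene lists (brightest tested clone per gene) and the alternatives were chosen with earlier results of these data known. Named were all members, tested genes of the sarcomere and calcium lists, the marker farthest from 0 per list and the 3 most alike genes per clone. The genes with flagged spots kept, Tnni2, Tnnt3, C1qa and the dimmer clones of listed genes were named after their values were seen. So were the sarcomere and calcium genes outside the lists. Random blocks used statmod 1.5.0, and figures matplotlib 3.10.9. No clone or protein sequence was used here.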

Additional observations from a re-analysis of the deposited data

Results flagged for a closer look

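Dixon's criterion was applied to 24 sets of values, by mouse and by array, and 2 sets held an extreme value, where chance gives about 1.2. The Myom2 ratio of 0.55 on the Cy5 array of mouse 4 stood above the next array, at 0.20, which was the Cy3 array of the same mouse. That gap was 0.538 of the spread from lowest to highest array. The criterion takes the values of a set as independent, which the 2 arrays of a mouse are not. Taken by mouse, the Myom2 gap at mouse 4 was 0.808 of the spread and did not pass the criterion. Mouse 4 was also the extreme one for the brighter of 2 tested Letm1 clones, with -0.84, while the nearest of the other mice had -0.37. The gap covered 0.833 of the distance between the lowest and highest mouse. The other Letm1 clone lay at 0.17 in mouse 4 and averaged 0.078 ± 0.063 (SD, n = 4 mice).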

How the results depend on the processing

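Knockout mice could not be paired with control mice because the labels give 1 group of mice and no control mouse was hybridised singly. The 2 dye-swapped arrays of each knockout mouse were used as a pair. The count of knockout calls, 0 of 8142 clones in limma (936 at an unadjusted p under 0.05), was 136 with median centring, 848 on the Cy5 arrays alone and 92 when the variance prior was trended and robust. The count was 174 with 8 arrays and mouse as a random block, 169 with a dye term added, and 119 among the 4071 brighter of the tested clones, a setting chosen after seeing the data. It was 87 without mouse 1 and 0 without any 1 of the others. It stayed at 0 in the other settings. The 903 dye calls became 0 with plain background subtraction, 428 with a normexp offset of 10, 523 with flagged spots kept, 189 in the authors' value table and 542 among the 4071 brighter clones. They were 143, 744, 39 and 17 without mouse 1, 2, 3 and 4 in turn. Asph clone AW561901, with the smallest spread over mice, moved from 0.18 by more than that spread: 0.27 with plain subtraction, 0.12 with no background correction, 0.24 with an offset of 10, 0.28 with median centring, 0.39 in the authors' value table, 0.13 on Cy3 arrays and 0.23 on Cy5 arrays. Mybpc3 lay at 0.40 with median centring, 0.41 in the authors' value table, -0.025 on Cy3 arrays and 0.24 on Cy5 arrays, and Myom2 at 0.39 with median centring and 0.41 in the authors' value table. Over all tested clones the median was 0.056 with median centring and 0.11 in the authors' value table. With flagged spots kept, 13 of 23 sarcomere and calcium genes lay above 0, against 8 of 13. With each dye orientation's mean taken out, 5 of the 15 most alike genes were among the 3 most alike of their clone. The causes were not tested. Signal over background limits Calml3 and Asph clone AW561901 most.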
